A study of Mus musculus with 12 samples.

Results

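The effect of adding Klf5 siRNA to Nr5a2 knockdown was examined in 8-cell mouse embryos by comparing Nr5a2 Klf5 double knockdown (dKD, n = 4) with Nr5a2 KD (n = 3). These 7 libraries, chosen by the treatment in their labels, are part of a series of 12 that also holds control (n = 2) and Klf5 KD (n = 3) embryos. Zygotes came from superovulated B6129F1 females aged 3 to 5 weeks mated with B6CBAF1 males, so all 4 groups share the same cross and carry no engineered allele. Zygotes were microinjected with siRNA, at 5 µM where Nr5a2 was the target, 10 µM for Klf5 and 15 µM for the control, and H2B-EGFP at 150 ng/µl was added in every group as a sign of injection. Neither the labels nor the methods spell out the amounts mixed for the dKD, or whether control siRNA filled up the single knockdowns. Each library was made from a pool of 10 embryos, and Klf5 was targeted with a single predesigned siRNA, so that effects on other transcripts cannot be told apart from those of lost KLF5. siRNA lowers an mRNA rather than removing the gene. The labels do not say whether replicates came from separate injection days, so p-values measure the spread between pools, which may be technical.

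KLF5 is a zinc-finger transcription factor of the Krüppel-like family, which binds CACCC-like and GC-rich sequences at promoters and enhancers. In the preimplantation embryo it is known for its role in forming the trophectoderm and the inner cell mass. NR5A2 is an orphan nuclear receptor that binds DNA as a monomer and acts in the activation of the embryonic genome and of early lineage genes. Since Nr5a2 KD libraries have already lost most Nr5a2 mRNA, the comparison asks what a further loss of Klf5 mRNA changes in embryos short of NR5A2.

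The 7 libraries held 6676683 to 8873766 counts on genes and detected 19990 to 20553 genes with at least 1 count. Mitochondrially encoded genes took 10.4, 12.5 and 6.18% of the counts in Nr5a2 KD and 12.8, 12.6, 6.75 and 6.17% in dKD, so low shares occurred in both groups. These low shares belonged to Nr5a2 KD replicate 3 and dKD replicates 3 and 4. The first principal component of the 500 most variable genes (28.4% of the variance) separated these 3 libraries from the other 4, not dKD from Nr5a2 KD. Mean ERCC share, mitochondrial share, genes detected and H2B-EGFP level did not differ between the groups beyond the spread (exact permutation p = 0.4 to 1, smallest possible p 0.0286 for 4 against 3). Of 12 marker genes of the 8-cell embryo, Sox2 was at 0 in all 7 libraries and Cdx2 at 0 to 0.41 CPM (counts scaled to a common library size), while Pou5f1, Tfap2c and Dppa3 were detected in every library. Among 16 cumulus and granulosa markers, 7 were at 0 in all 7 libraries, among them Fshr, Lhcgr and Cyp19a1. The most abundant of them, Amhr2, was at 8.25 to 16.7 CPM, and no other exceeded 2.02 CPM. Their summed level was 11.8 to 15.0 CPM in Nr5a2 KD and 9.31 to 18.5 CPM in dKD, and their part in the results was not tested. In pooled embryos, fewer cells that express a gene cannot be told apart from less RNA per cell.

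Klf5 mRNA was lower in dKD than in Nr5a2 KD, and Nr5a2 mRNA was at a similar level in both. Levels are in CPM, scaled with TMM factors over all 12 libraries. Klf5 was at 150, 158 and 109 CPM in the 3 Nr5a2 KD libraries and at 82.0, 59.8, 42.2 and 39.9 CPM in the 4 dKD libraries. Every dKD library was below every Nr5a2 KD library, and the dKD mean was 40.2% of the Nr5a2 KD mean (56.0 ± 19.5 against 139 ± 26.5 CPM, SD). The log2 fold change was -1.31 (standard error 0.26, 95% interval -1.88 to -0.75), with an adjusted p of 0.999 in edgeR's quasi-likelihood test and 0.0228 in DESeq2, and an exact permutation p of 0.0286. For reference, Klf5 stood at 454 CPM in control and 111 CPM in Klf5 KD, and the Klf5 KD libraries (72.7, 117 and 144 CPM) overlapped those of dKD. Nr5a2 averaged 31.9 ± 7.42 CPM in Nr5a2 KD (SD, n = 3) and 29.7 ± 3.68 CPM in dKD (SD, n = 4). Its log2 fold change was -0.10 (standard error 0.22, 95% interval -0.58 to 0.39), an interval that excludes a 2-fold difference in either direction, although its sign turned without Nr5a2 KD replicate 2 (0.06).

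**Figure D1:**
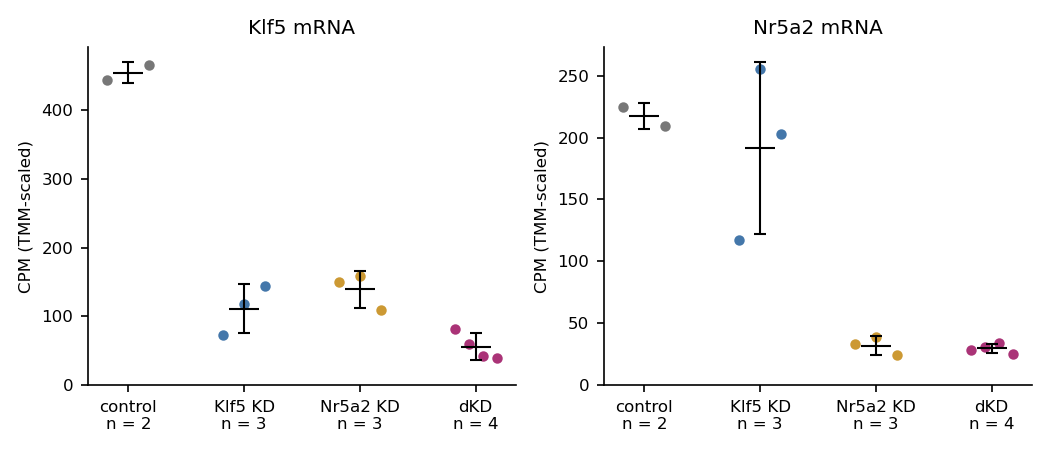
Klf5 and Nr5a2 mRNA in CPM on linear axes from 0, with a point for each library and the mean ± SD of control (n = 2), Klf5 KD (n = 3), Nr5a2 KD (n = 3) and dKD (n = 4). The 4 dKD libraries lie below the 3 Nr5a2 KD libraries for Klf5 (39.9 to 82.0 against 109 to 158 CPM), whereas their Nr5a2 levels overlap.

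Across 13017 genes tested, no difference between dKD and Nr5a2 KD passed the adjustment in edgeR (0% lower and 0% higher), where called genes had to change 2-fold or more with an adjusted p under 0.05. At an unadjusted p under 0.05, 447 genes (3.43%) differed, 251 lower (1.93%) and 196 higher (1.51%) in dKD. With the replicate number as a block, 454 genes (3.49%) were lower and 401 (3.08%) higher at that p, and 0 passed the adjustment. Without the block, 127 (0.976% of genes tested) were at least 2-fold lower and 94 (0.722%) at least 2-fold higher. Without overlap between the groups there were 317 genes lower (2.44%) and 304 higher (2.34%). DESeq2 on the same counts called 4 genes lower (0.0307%), which were Klf5, Gng2, Apoa1 and Parpbp, and 0 higher, with 486 genes at an unadjusted p under 0.05. The median log2 fold change over all genes was 0.01. In the 4 libraries with a mitochondrial share above 10%, an alternative chosen after seeing the data, edgeR again called 0 genes and 528 were at an unadjusted p under 0.05. With the mitochondrial share as a covariate, 927 genes were at that p and edgeR called 1 lower, Klf5. With consecutive library numbers as a block, also chosen after seeing the data, 1018 were at that p and edgeR called 4 lower.

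Gng2, which encodes a gamma subunit of heterotrimeric G proteins (chromosome 14, 19872559 to 19977627 on GRCm38), was at 21.2, 33.4 and 14.9 CPM in Nr5a2 KD and at 5.17, 9.05, 8.13 and 3.77 CPM in dKD. All 4 dKD libraries lay below the lowest Nr5a2 KD library (log2 fold change -1.82, standard error 0.36, DESeq2 adjusted p = 0.0228). Gng2 was also at 8.63 CPM in control and at 0.855 CPM in Klf5 KD. Apoa1, the main apolipoprotein of high-density lipoprotein (chromosome 9, 46228580 to 46230466), was at 10.7, 6.04 and 12.5 CPM in Nr5a2 KD and at 2.77, 1.13, 2.71 and 2.94 CPM in dKD. The groups did not overlap (log2 fold change -2.01, standard error 0.41, DESeq2 adjusted p = 0.0257), and in control and Klf5 KD the level was 1.18 and 0.534 CPM, too low to be tested there. Parpbp, which encodes a PARP1-binding protein that restrains homologous recombination (chromosome 10, 88091432 to 88146941), was at 10.0, 8.47 and 7.77 CPM in Nr5a2 KD and at 2.14, 2.83, 2.83 and 3.36 CPM in dKD. Here too the groups were separate (log2 fold change -1.65, standard error 0.33, DESeq2 adjusted p = 0.026), while control and Klf5 KD stood at 4.39 and 5.21 CPM. Each of these 3 genes had an adjusted p of 0.999 in edgeR. With consecutive library numbers as a block, chosen after seeing the data, edgeR called Apoa1 (adjusted p = 0.0366) and Klf5 (adjusted p = 0.00709) and not Gng2 or Parpbp. When all genes entered the fit, Gng2, Apoa1 and Klf5 were called and Parpbp was not.

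The promoters of these 3 genes and of Shisal2b, a shisa-like gene that was lower after Klf5 siRNA both with and without Nr5a2 siRNA, are shown because they cover the called genes other than Klf5 and the next gene described. They are stretches of 300 bases that reach 50 bases past the start site, taken from RefSeq on GRCm38.p6. Gng2 is at chr14:19976644-19976943 (minus strand), Shisal2b at chr13:104863844-104864143 (minus strand), Apoa1 at chr9:46228380-46228679 (plus strand) and Parpbp at chr10:88146892-88147191 (minus strand). Each is written 5′ to 3′ on the strand of its gene, and capitals mark matches to the KLF-type motif CCNCNCCC on either strand.
Gng2: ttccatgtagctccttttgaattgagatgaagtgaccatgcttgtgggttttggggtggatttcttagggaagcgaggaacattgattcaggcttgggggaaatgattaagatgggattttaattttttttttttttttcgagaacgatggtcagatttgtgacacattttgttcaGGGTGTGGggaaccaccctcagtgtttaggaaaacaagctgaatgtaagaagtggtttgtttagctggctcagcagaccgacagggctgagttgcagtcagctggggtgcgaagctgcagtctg
Shisal2b: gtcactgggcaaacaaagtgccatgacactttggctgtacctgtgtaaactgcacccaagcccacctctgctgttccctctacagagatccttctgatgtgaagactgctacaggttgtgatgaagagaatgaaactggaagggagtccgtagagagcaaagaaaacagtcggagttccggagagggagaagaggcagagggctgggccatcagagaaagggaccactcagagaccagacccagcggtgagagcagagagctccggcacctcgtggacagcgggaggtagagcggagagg
Apoa1: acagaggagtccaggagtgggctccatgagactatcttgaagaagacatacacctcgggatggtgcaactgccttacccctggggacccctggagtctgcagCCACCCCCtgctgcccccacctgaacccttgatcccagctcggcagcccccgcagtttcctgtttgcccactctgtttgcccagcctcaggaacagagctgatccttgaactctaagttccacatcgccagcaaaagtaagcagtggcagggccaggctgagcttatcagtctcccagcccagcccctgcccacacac
Parpbp: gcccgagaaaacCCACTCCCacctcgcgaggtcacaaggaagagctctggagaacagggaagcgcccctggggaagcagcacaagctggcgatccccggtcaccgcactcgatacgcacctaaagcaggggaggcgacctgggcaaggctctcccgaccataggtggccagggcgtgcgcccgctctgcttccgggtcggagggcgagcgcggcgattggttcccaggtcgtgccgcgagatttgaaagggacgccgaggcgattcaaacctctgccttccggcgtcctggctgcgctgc
Gng2, Apoa1 and Parpbp each held 1 match, and Shisal2b held none. The motif occurred in 51.9% of the 27025 genes with a promoter in the table and in 70.0% of the 8963 genes tested that could be matched by symbol, so a match is common. The NR5A-type motif AAGGTCA, searched on both strands, occurred in 5.38% of all promoters and in none of these 4. A match is a description of the letters, not of binding, and Klf5 itself had no entry.

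Shisal2b was at 173, 131 and 101.9 CPM in Nr5a2 KD and at 66.2, 84.4, 52.3 and 53.4 CPM in dKD. The dKD mean was 47.3% of the Nr5a2 KD mean without overlap (log2 fold change -1.08, standard error 0.24), and its DESeq2 adjusted p of 0.075 did not pass. Ceacam10, of the carcinoembryonic antigen family of cell adhesion proteins, was at 12.5, 28.0 and 18.4 CPM in Nr5a2 KD and at 5.17, 7.35, 9.43 and 4.24 CPM in dKD (log2 fold change -1.58, DESeq2 adjusted p = 0.0814). Lgals3, the carbohydrate-binding galectin-3, was at 17.8, 15.0 and 24.6 CPM in Nr5a2 KD and at 8.57, 9.76, 8.84 and 7.66 CPM in dKD (log2 fold change -1.13). Both genes had separate groups. Xlr4a, of an X-linked multicopy family whose members share sequence and are therefore less certain, was at 8.59, 8.24 and 14.8 CPM in Nr5a2 KD and 3.47 to 4.24 CPM in dKD (log2 fold change -1.44). Gng2, Apoa1, Ceacam10, Lgals3 and Xlr4a were at 23.2, 9.76, 19.6, 19.1 and 10.6 CPM in Nr5a2 KD and at 8.63, 1.18, 9.73, 5.99 and 4.46 CPM in control, so in each the dKD mean lay nearer to control than the Nr5a2 KD mean did. The same dKD and Nr5a2 KD libraries chose these genes, and this order was not tested.

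Of the genes that were higher in dKD with at least 2-fold, no overlap and a mean of at least 5 CPM, none passed an adjustment in edgeR or DESeq2. Sbp, the spermine-binding protein gene, was at 29.8, 18.8 and 20.7 CPM in Nr5a2 KD and at 42.9, 33.9, 63.9 and 46.5 CPM in dKD (log2 fold change 1.03, standard error 0.27, DESeq2 adjusted p = 0.27). Hus1b, a paralogue of a subunit of the DNA damage checkpoint clamp, was at 1.65, 3.16 and 3.63 CPM in Nr5a2 KD and at 5.67, 11.9, 6.84 and 5.77 CPM in dKD (log2 fold change 1.42). The groups were separate in both genes. Gtdc1, a glycosyltransferase-like gene, rested on 4.30 ± 0.557 CPM in Nr5a2 KD and 9.43 ± 2.66 CPM in dKD (SD, n = 3 and 4), and Stxbp6, a regulator of SNARE complexes, on 3.58 ± 0.391 and 7.61 ± 1.92 CPM. Scn3a, a sodium channel subunit, was at 3.22 and 6.65 CPM, and Ncmap, a myelin-associated protein gene, at 3.26 and 6.65 CPM. Compared with the lower genes, the DESeq2 adjusted p of these 6 genes was 0.27 to 1.

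**Figure D2:**
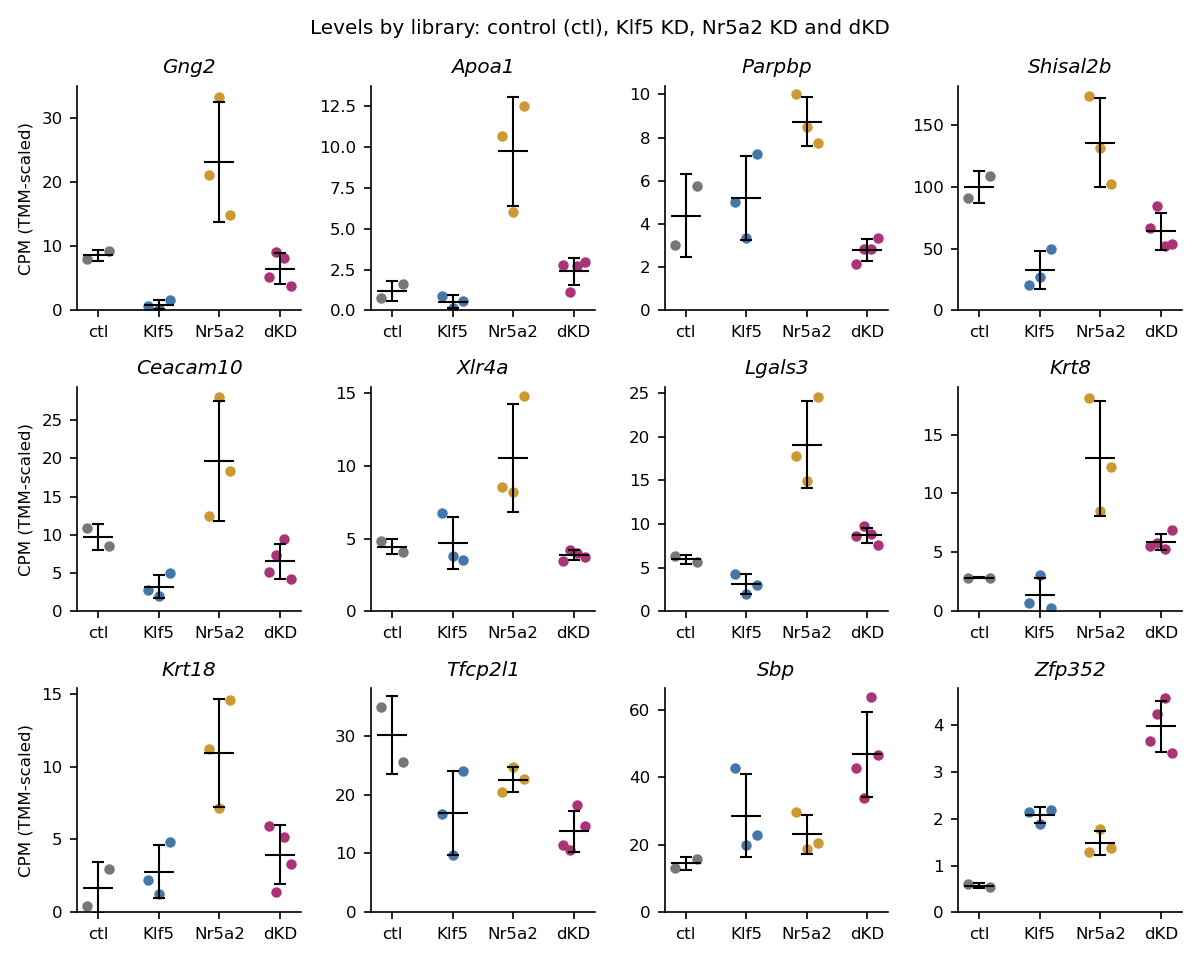
CPM on linear axes from 0 for 12 genes, with a point for each library and the mean ± SD of control (ctl, n = 2), Klf5 KD (n = 3), Nr5a2 KD (n = 3) and dKD (n = 4). For the first 10 genes the dKD points lie below the Nr5a2 KD points, as for Gng2 at 3.77 to 9.05 against 14.9 to 33.4 CPM, and for Sbp and Zfp352 above them.

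The same Klf5 siRNA was injected without Nr5a2 siRNA in Klf5 KD embryos. These 3 libraries and the 2 controls do not enter the comparison of dKD with Nr5a2 KD. Mitochondrially encoded genes took 13.2 and 12.9% of their counts in control and 4.41, 8.28 and 11.8% in Klf5 KD. The summed level of 8 Y-linked genes, without TMM factors, was 44.6 and 35.3 CPM in control and 20.9, 35.3 and 95.6 CPM in Klf5 KD. The part of these measures in the lists below was not tested. In Klf5 KD against control, edgeR called 0 of 12838 genes (0% lower and 0% higher, 1088 genes at an unadjusted p under 0.05), and DESeq2 called 42 lower (0.327%) and 8 higher (0.0623%). Of these, 37 lower and 7 higher genes were also tested in dKD against Nr5a2 KD. Leaving out Klf5, 32 of the 36 lower genes had a negative log2 fold change in dKD against Nr5a2 KD and 4 a positive one, with a median of -0.38 beside 0.01 over all genes tested. At an unadjusted p under 0.05, 9 of the 36 were lower and 1 was higher, beside 1.93% and 1.51% of all genes, and 6 of the 36 were lower without overlap, beside 2.44%. All 7 genes higher in Klf5 KD had a positive log2 fold change (median 0.33), and none was at an unadjusted p under 0.05. That median was 0.09 without Nr5a2 KD replicate 2 and 0.54 without Nr5a2 KD replicate 3. The median of the 36 genes ranged from -0.56 to -0.31 with each of the 7 libraries left out in turn, and it was -0.29 in the 4 libraries with a mitochondrial share above 10% (24 of 34 negative). With the summed level of 8 Y-linked genes in the fit, taken without TMM factors, it was -0.13 with 21 of 36 negative, and the median of the 7 higher genes was -0.46. That sum did not overlap between dKD and Nr5a2 KD, so this fit cannot fully separate it from the Klf5 siRNA. With Klf5 included and no covariate, the median over the 37 genes was -0.41.

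Apart from Klf5, Gng2 and Shisal2b, the genes lower in Klf5 KD that were also lower without overlap in dKD were Tppp3, Kdelr3, Isl2 and Actn1, named after their values were seen. Tppp3, a tubulin polymerization-promoting protein gene, was at 3.41, 4.53 and 4.51 CPM in Nr5a2 KD and at 0.126, 1.98, 0.471 and 1.77 CPM in dKD (log2 fold change -1.93, unadjusted p = 0.0134 from edgeR across all genes). Kdelr3, a receptor that returns proteins to the endoplasmic reticulum, was at 7.53, 10.2 and 9.40 CPM in Nr5a2 KD and at 5.80, 5.02, 3.71 and 5.24 CPM in dKD (log2 fold change -0.86). Isl2, a LIM homeodomain factor, was at 5.53, 5.08 and 4.26 CPM in Nr5a2 KD and at 1.77, 3.54, 1.77 and 0.471 CPM in dKD (log2 fold change -1.40). Actn1, an alpha-actinin that crosslinks actin filaments, averaged 3.88 CPM in Nr5a2 KD and 2.53 CPM in dKD (log2 fold change -0.63, unadjusted p = 0.132 from edgeR across all genes). In Klf5 KD against control, the log2 fold changes of Tppp3, Kdelr3 and Isl2 were -3.18, -2.68 and -2.68. Spink2, a serine protease inhibitor gene, averaged 238 CPM in Nr5a2 KD and 105 CPM in dKD, with overlap, as dKD replicate 2 was at 197 CPM and Nr5a2 KD replicate 3 at 135 CPM. Zfp367, a zinc-finger gene, was the exception among the 36 at an unadjusted p under 0.05, with a log2 fold change of 0.86 in dKD against Nr5a2 KD (0.52 without dKD replicate 2) and -1.54 in Klf5 KD against control.

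In the other direction, 24 genes were at least 2-fold lower in dKD than in Nr5a2 KD at an unadjusted p under 0.01 with a mean of at least 5 CPM, and 22 of them were tested in Klf5 KD against control. Their median log2 fold change there was -0.81 beside 0.03 over all genes of that level, 17 of 22 were negative, and 10 were lower and 0 higher at an unadjusted p under 0.05, beside 4.67% and 3.81% of all genes. The 10 genes chosen as higher had a median of 0.49 there, with 8 positive. Klf5 is among the 24, and without it the median of the other 21 tested was -0.75, with 16 negative and 9 lower at an unadjusted p under 0.05. This choice was made after seeing the data. Over the genes that both comparisons could test, log2 fold changes correlated with a Pearson r of 0.15 (11941 genes) and of 0.24 for 2667 genes with a mean of at least 50 CPM, a description over genes, which are not independent, in libraries that the comparisons do not share.

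**Figure D3:**
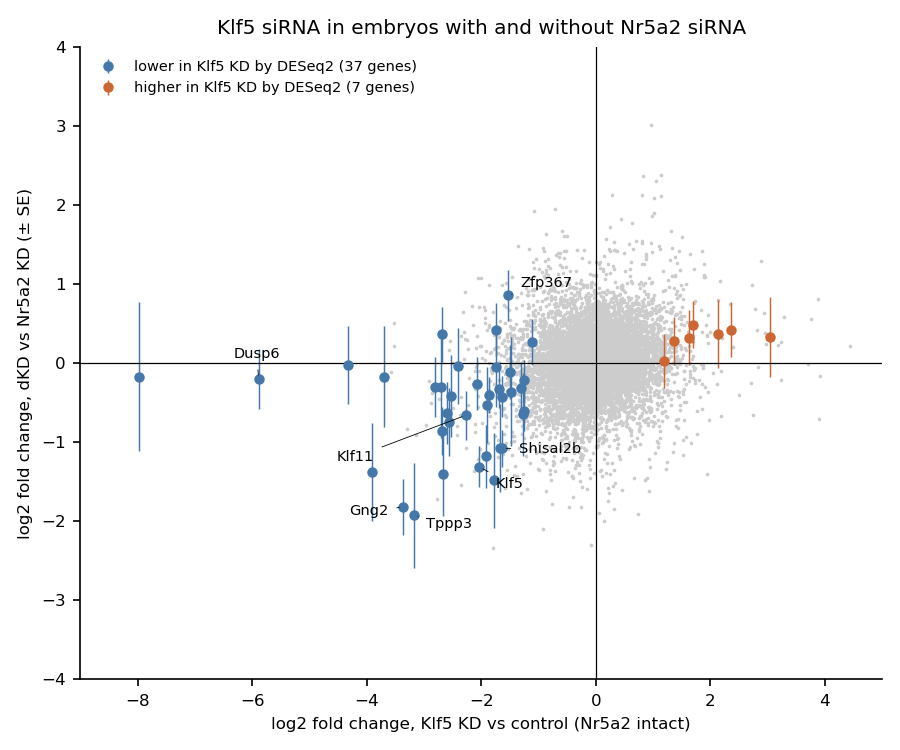
Log2 fold change of each gene in Klf5 KD against control (x axis) and in dKD against Nr5a2 KD (y axis, bars are the standard error of the y value), with 11941 genes in grey, 1 of which lies outside the axes. Of the 37 genes called lower in Klf5 KD by DESeq2 (blue), 33 lie below 0 on the y axis, and the 7 called higher (orange) lie above it.

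Of 18 Klf family genes sought, 17 are in the annotation and 11 were tested. In dKD against Nr5a2 KD, Klf5 was lower at an unadjusted p under 0.05 and 0 members were higher, beside 1.93% lower and 1.51% higher of all genes. The median of the 11 was -0.22 beside 0.01 over all genes. Without Klf5, the target, the median of the other 10 was -0.13, with 6 negative and 4 positive. In Klf5 KD against control, 7 of the 11 were lower at an unadjusted p under 0.05 and 0 higher, beside 4.67% and 3.81% of all genes, with a median of -1.02. Klf5, the target, was among the 7, and without it 6 of 10 were lower (median -0.86). Klf11, a repressor of the TIEG type, was at 8.94, 11.8 and 15.3 CPM in Nr5a2 KD and at 5.80, 10.6, 7.54 and 6.48 CPM in dKD, which overlapped (log2 fold change -0.66, standard error 0.31, against -2.27 in Klf5 KD). Klf3, a repressor that recruits CtBP, was at 23.1, 41.8 and 26.1 CPM in Nr5a2 KD and at 28.4, 21.9, 17.7 and 21.8 CPM in dKD, with overlap (log2 fold change -0.43, standard error 0.26, against -1.64). Without Nr5a2 KD replicate 2 the value of Klf3 was -0.13, and without Nr5a2 KD replicate 3 that of Klf11 was -0.43. The difference between the effects with and without Nr5a2 siRNA had an unadjusted p of 0.00462 for Klf11 and 0.00699 for Klf3 in edgeR's interaction test, and an adjusted p of 0.95 for both. Klf8, an X-linked member, had a log2 fold change of -0.51 (standard error 0.25), against -1.44, and with the replicate block it was lower at an unadjusted p of 0.0174 in edgeR across all genes. Klf2, Klf4 and Klf17, of which the first pair belong to the pluripotency network, had positive values of 0.18, 0.36 and 0.35 in dKD against Nr5a2 KD, with unadjusted p-values of 0.445, 0.356 and 0.118 from edgeR across all genes. With each library left out in turn they ranged from 0.04 to 0.37, from 0.03 to 0.87 and from 0.21 to 0.44, lowest without Nr5a2 KD replicate 3 for Klf2 and Klf4 and without dKD replicate 4 for Klf17. Per kilobase of exon, Klf5 was at 26.8 CPM in Nr5a2 KD, below Klf2 at 56.6 and close to Klf17 at 25.8, and at 10.8 CPM in dKD, below Klf17 at 32.8 and Klf9 at 12.1.

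**Figure D4:**
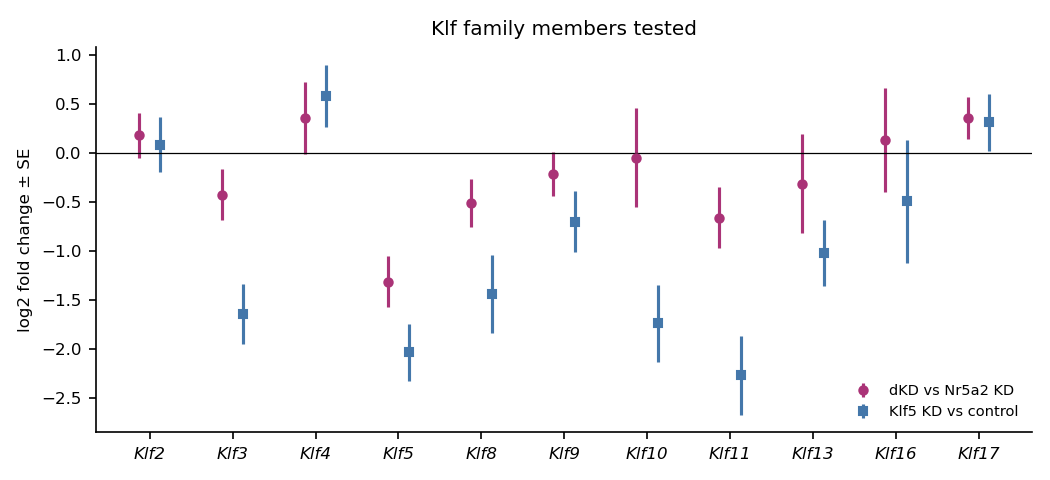
Log2 fold change ± standard error of the 11 Klf family members tested, in dKD against Nr5a2 KD (circles, n = 4 and 3) and in Klf5 KD against control (squares, n = 3 and 2). Klf3 and Klf11 lie at -0.43 and -0.66 in dKD against Nr5a2 KD and at -1.64 and -2.27 in Klf5 KD against control.

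The interaction of the siRNAs, that is, whether Klf5 siRNA acted differently with and without Nr5a2 siRNA, was fitted with all 12 libraries. The 2 settings differ in how much Klf5 mRNA was lost. It stood at 454 CPM in control against 111 CPM in Klf5 KD, and at 139 CPM in Nr5a2 KD against 56.0 CPM in dKD. The part of these unequal losses in the interaction, and in the Klf3 and Klf11 values above, was not tested. Among 14830 genes edgeR called 0 (0% lower and 0% higher, smallest adjusted p 0.48), with 715 at an unadjusted p under 0.05 (4.82%), and DESeq2 called 3 genes (0.0202%), which were CT030661.1, Olfr832 and Dusp6. Dusp6, a phosphatase that acts on ERK in a feedback loop of FGF signalling, was at 3.93 and 2.54 CPM in control, at 0, 0 and 0.146 CPM in Klf5 KD, at 33.5, 42.7 and 26.6 CPM in Nr5a2 KD and at 15.1, 52.3, 17.1 and 34.5 CPM in dKD. Thus the Dusp6 levels of dKD and Nr5a2 KD overlapped (log2 fold change -0.21, standard error 0.38) and those of Klf5 KD and control did not. Its interaction had an adjusted p of 0.0381 in DESeq2 and 0.48 in edgeR, and its small change between dKD and Nr5a2 KD turned positive without dKD replicate 1 (0.01). CT030661.1, a protein-coding gene by its annotation, was at 6.94, 4.74 and 7.27 CPM in Nr5a2 KD and at 17.3, 13.5, 10.4 and 9.19 CPM in dKD, separate and higher. In contrast, its 3 Klf5 KD libraries were at 4.04, 5.19 and 2.56 CPM, below both control libraries at 12.2 and 12.8 CPM. Olfr832, an olfactory receptor gene, was at 0 in all 3 Nr5a2 KD libraries and at 0.942 to 1.51 CPM in dKD. Parpbp had an unadjusted interaction p of 0.00449, Xlr4a of 0.0122 and Gng2 of 0.0401 (adjusted p of 0.95 for each), and for Shisal2b, Ceacam10 and Lgals3 the unadjusted p was 0.237, 0.981 and 0.663, which does not show that the effects were alike.

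Lineage genes at an unadjusted p under 0.05 between dKD and Nr5a2 KD were all lower in dKD, namely 2 of 14, 2 of 17 and 1 of 7 in the 3 lists below, beside 1.93% lower and 1.51% higher of all genes, and edgeR called no member. Of 14 trophectoderm genes tested, 2 were lower and 0 higher at that p (median -0.10). At any p, 8 of the 14 values were negative and 6 positive, among them 0.37 for Tfap2c. The 2 lower genes were the keratins Krt8 and Krt18, which pair in the filaments of simple epithelia and of the outer cells. Krt8 was at 18.1, 8.52 and 12.3 CPM in Nr5a2 KD and at 5.55, 5.80, 5.30 and 6.89 CPM in dKD (log2 fold change -1.14, standard error 0.31, unadjusted p = 0.00314 by edgeR). Krt18, named after its value was seen, was at 11.2, 7.14 and 14.5 CPM in Nr5a2 KD and at 5.93, 1.41, 5.19 and 3.30 CPM in dKD (log2 fold change -1.46, standard error 0.44, unadjusted p = 0.00622 by edgeR). Both keratins had separate groups, and both were under 3 CPM in control. Of 17 inner cell mass and pluripotency genes, 2 were lower and 0 higher at that p (median -0.15, with 12 values negative and 5 positive). Tfcp2l1, a factor of the naive pluripotency network, was at 20.4, 24.6 and 22.6 CPM in Nr5a2 KD and at 11.5, 10.6, 18.3 and 14.6 CPM in dKD (log2 fold change -0.70). Gdf3, a ligand of the TGF-beta family, was at 6.35, 4.53 and 6.39 CPM in Nr5a2 KD and at 0.883, 2.97, 3.30 and 2.59 CPM in dKD (log2 fold change -1.23). In both genes the dKD libraries were lower without overlap. Of 7 primitive endoderm and Gata genes, Pdgfra, a receptor of that lineage, was lower at an unadjusted p of 0.0212 by edgeR (log2 fold change -1.01, with overlap). None of the 7 was higher at an unadjusted p under 0.05, and 5 values were negative and 2 positive.

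The signalling and housekeeping lists held between 0 and 2 members each at an unadjusted p under 0.05, beside 1.93% lower and 1.51% higher of all genes. Of 29 Hippo and polarity genes and 27 FGF-ERK genes, 0 were at an unadjusted p under 0.05 in either direction (medians 0.15 and 0.08). With the replicate block, 2 Hippo and polarity genes (Lats2 and Llgl1) and 3 FGF-ERK genes (Sos1, Spred1 and Spry2) were higher at that p, beside 3.08% of all genes, and 0 were lower. In the other lists of this paragraph the block added Tcf7l2, Dvl2 and Ep300 as higher and Atm, Ccng1, Khdc3 and Npm2 as lower at that p. In the trophectoderm list it added Elf3 as lower, and Smad1 no longer passed. Lower with the block were 4 of 20 maternal oocyte genes, 3 of 18 p53 targets, 2 of 39 DNA repair and replication genes and 3 of 14 trophectoderm genes. Higher were 2 of 30 Wnt and TGF-beta genes and 1 of 21 histone acetylation genes. The shares of all genes were 3.49% lower and 3.08% higher. Of 30 Wnt and TGF-beta genes, 1 was lower, which was Gdf3, and 1 higher, Smad1, an effector of BMP signals at 0.58 CPM in Nr5a2 KD and 2.27 CPM in dKD with overlap. Of 39 DNA repair and replication genes, 1 was lower, Fanci of the Fanconi anaemia pathway (10.1 ± 0.527 against 6.04 ± 0.737 CPM, SD, n = 3 and 4), and 0 higher (median 0.07). Histone acetylation genes (21 tested) and RNA interference genes (12 tested) held 0 at that p in either direction, with medians of 0.12 and 0.10, and so did, with or without the block, 8 double-stranded RNA and interferon genes (median 0.41) and 15 mitochondrially encoded genes (median -0.03). The summed level of 13 RNA interference genes was 312 to 342 CPM in Nr5a2 KD and 346 to 360 CPM in dKD, without overlap. Its exact permutation p was 0.0286, not adjusted over the 20 lists. Of 18 p53 targets, Btg2, an antiproliferative gene, and Perp, a desmosome gene, were lower (log2 fold changes -1.41 and -0.47, both with overlap) and 0 were higher (median -0.25). Without Nr5a2 KD replicate 3, which was at 20.2 CPM beside 4.94 and 4.67 CPM, the value of Btg2 was -0.34. Of 20 maternal oocyte genes, Btg4, an adaptor of mRNA deadenylation, and Zp3, of the zona pellucida, were lower (-1.48 with overlap and -0.60 without) and 0 higher (median -0.18). The value of Btg4 was -0.36 without Nr5a2 KD replicate 2, and that of Zp3 was -0.22 without Nr5a2 KD replicate 3. Of 9 genes of the 2-cell stage tested, 0 were lower and 1 was higher, Zfp352, at 1.29, 1.79 and 1.38 CPM in Nr5a2 KD and 3.66, 4.24, 4.60 and 3.42 CPM in dKD (log2 fold change 1.42).

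**Figure D5:**
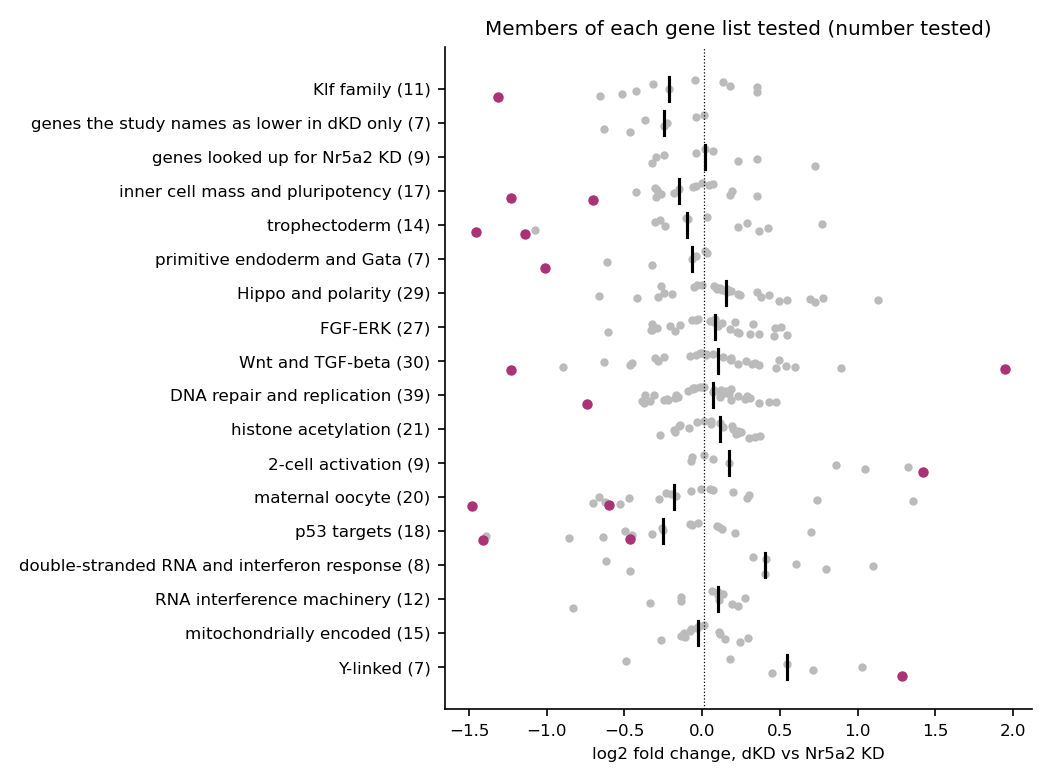
Log2 fold change in dKD against Nr5a2 KD of the tested members of 18 gene lists, with the number tested in parentheses, members at an unadjusted p under 0.05 in purple, the list median as a black bar and the median of all genes as a dotted line. Most members lie within 0.5 of 0 (for example 38 of 39 DNA repair and replication genes), and Krt8 and Krt18 (-1.14 and -1.46) stand lowest among trophectoderm genes.

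The study names 7 genes as lower in dKD only, a list chosen on these dKD libraries and therefore no independent evidence of direction. It compared each knockdown with control, not dKD with Nr5a2 KD, so the direct comparison here does not repeat its test. The summed level of the 7 genes was 147 to 148 CPM in control, 69.7 to 73.9 CPM in Nr5a2 KD and 57.2 to 68.9 CPM in dKD. In dKD against Nr5a2 KD, 0 of the 7 were at an unadjusted p under 0.05, 6 were negative, and the median was -0.24. Ryk, a Wnt co-receptor, was lower without overlap (11.1 ± 0.148 against 8.01 ± 2.63 CPM, SD, n = 3 and 4), with a log2 fold change of -0.47 (95% interval -1.14 to 0.21). Smad7, an inhibitor of TGF-beta signalling, and Rad51c, a recombination protein, had -0.63 (95% interval -1.88 to 0.61) and -0.37 (-1.76 to 1.02), with overlap. Smad7 was at -0.12 without Nr5a2 KD replicate 2, Rad51c turned positive without Nr5a2 KD replicate 1 (0.13), and Ryk was at -0.29 without dKD replicate 1. Rnaseh2c, of an enzyme that removes RNA from DNA, and Pold1, of the replicative DNA polymerase delta, had -0.24 and -0.23, which came to -0.005 and -0.05 without Nr5a2 KD replicate 1. Pold1 was also at -0.05 without dKD replicate 4. Prkcd, a protein kinase C, and Aunip, an Aurora kinase-interacting protein, had -0.04 and 0.01, and the sign of both turned with single libraries left out. None of the intervals excludes 0. Of 6 genes other than Klf5 that the study's text names as lower after Nr5a2 KD, also chosen on these libraries, 0 were at an unadjusted p under 0.05 (median -0.14). With Tead4, Klf4 and Tdgf1, which were looked up beside them, 0 of 9 were (median 0.02). Lats2, a Hippo kinase, had the smallest p (0.0519 unadjusted, log2 fold change 0.73), at 8.26 CPM in Nr5a2 KD and 13.7 CPM in dKD beside 39.8 CPM in control, and 0.44 without dKD replicate 2. Tead4, the Hippo effector of the trophectoderm, had 0.23 (0.10 to 0.54 with each library left out, lowest without Nr5a2 KD replicate 1 and highest without Nr5a2 KD replicate 2), and Xist, the RNA that silences the X chromosome, -0.29 (-0.03 without dKD replicate 3, and -0.13 without Nr5a2 KD replicate 1). With the replicate block, Lats2 was higher and Xist lower at an unadjusted p under 0.05.

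Against the shared control libraries, 586 genes (4.42%) were called lower by edgeR in Nr5a2 KD, and 457 (3.45%) were called higher. For dKD the calls were 529 (3.85%) and 464 (3.38%). Among genes tested here, 109 were called lower in dKD and not in Nr5a2 KD, and their median log2 fold change between dKD and Nr5a2 KD was -0.32, with 0 called by edgeR or DESeq2. Another 156 were called lower in Nr5a2 KD and not in dKD, with a median of 0.37, and 344 in both, with a median of 0.02. Higher genes mirrored this, with medians of 0.41 for 163 in dKD alone and -0.45 for 159 in Nr5a2 KD alone. These lists use the same dKD and Nr5a2 KD libraries as the direct comparison, so the signs follow from the choice and are given as a description.

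The summed level of 8 Y-linked genes was, without TMM factors, 91.0, 67.4 and 94.2 CPM in Nr5a2 KD and 97.2, 115, 139 and 104 in dKD, so every dKD pool was above every Nr5a2 KD pool, although the difference did not pass the test (exact permutation p = 0.0571, adjusted p = 0.286 over 5 library measures). With TMM factors the groups overlapped, at 64.8 to 95.01 CPM in Nr5a2 KD and 93.1 to 131 CPM in dKD (exact permutation p = 0.171). Of 7 Y-linked genes tested, 6 had a positive log2 fold change, and Uty, a histone demethylase-related gene, was at 2.94, 4.53 and 3.88 CPM in Nr5a2 KD and 5.30, 10.6, 10.8 and 10.0 CPM in dKD (log2 fold change 1.28). On the X chromosome, the median log2 fold change of 439 genes was -0.15, and 12 of the 127 genes at least 2-fold lower at an unadjusted p under 0.05 (9.45%) were X-linked, beside 3.37% of all genes tested and 3 of 94 higher genes. These include Xlr4a, and the part of the makeup of the pools in these values was not tested. When the Y-linked sum without TMM factors was added to the fit, which was decided with the data in view, Klf5 had a log2 fold change of -0.89. Its standard error was 0.34, beside 0.26 without the sum. In that fit edgeR called 0 genes, with 470 at an unadjusted p under 0.05. Since the sum did not overlap between the groups, the fit cannot fully separate it from the Klf5 siRNA. Of 52 genes named in the text and run through it, Klf3, Klf8, Btg4, Smad7, Rad51c, Dusp6, Xist and Prkcd turned positive in that fit, and Aunip turned negative.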

How the data were processed

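RNA-seq of polyadenylated RNA was analysed from 12 libraries, of which 7 enter the main comparison. Per the labels and methods, cDNA was made with a SMART-seq v4 kit, which keeps neither strand nor molecular identifiers, and read pairs were sequenced, on a NovaSeq by the methods and on a NovaSeq or an AVITI by the labels. The authors trimmed reads with Trim Galore 0.6.2, mapped them with STAR (version not given in the sources used here) to GRCm38 extended by the ERCC and H2B-EGFP sequences, and counted them over exons with featureCounts 2.0.1, as the submitters' processing notes and file headers state. What the authors deposited are estimated counts for each gene, not normalized, since a pair overlapping several genes was split between them, and reads of multicopy or overlapping genes are less certain. The headers name a filtered alignment, whose filter is not given in the sources used here. Counts were rounded here. GENCODE M21 gave names for 55141 of the 55401 genes, and 260 kept an identifier.

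Genes were filtered with filterByExpr (minimum count 10, minimum total 15) and tested with glmQLFit and glmQLFTest in edgeR 4.0.16 with TMM factors and Benjamini-Hochberg adjustment, in R 4.3.3. DESeq2 1.42.0, which the study used, was an alternative. Each comparison used its own groups, and the interaction all 12 libraries. For single values, an exact permutation test (two-sided, on the absolute difference in means) was used. With 6676683 to 8873766 counts per library, a gene at 10 counts has a large counting error, and intervals and p-values cannot separate it from amplification noise. No 2 libraries matched within sampling noise. Nr5a2 KD and dKD libraries that share a replicate number departed from their group means together (correlations of 0.168, 0.285 and 0.311 over 13017 genes). Of the pairs with different numbers, Nr5a2 KD replicate 3 with dKD replicate 4 had 0.322 and Nr5a2 KD replicate 2 with dKD replicate 1 had 0.127, and the other 7 had -0.304 to 0.0401. Since every pair with the same number was over 0.1, the replicate number was also fitted as a block. Simulated counts with known changes were run through edgeR and DESeq2 without a block or covariate, and through edgeR's interaction test. DESeq2's interaction test, the fits with a block or covariate and the permutation test were not run on simulated counts. The simulated libraries held no shared departures of the kind described above.

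The members, the 20 gene lists and the rule for named genes were chosen with earlier results of these data known. The rule takes the targets, the Klf family, genes looked up from the study, genes called by edgeR or DESeq2, the 8 genes per direction with the smallest p among those at least 2-fold changed without overlap and with a mean of at least 5 CPM, leaving out Gm, Rik and clone-type symbols (7 remained among the higher genes), and in each list the member with the smallest p per direction. Alternatives changed the scaling, filter, rounding, covariates, samples and thresholds, and left out each library in turn. The study's chromatin and imaging data were not analysed here. Figures were drawn with matplotlib 3.10.9.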

Additional observations from a re-analysis of the deposited data

Results flagged for a closer look

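In a check of the 4 dKD values of 57 quantities (52 named genes and 5 library measures) for a sample far from the other 3, 3 were found, where chance alone gives about 1 in 20. Apoa1 was at 1.13 CPM in dKD replicate 2 and at 2.71 to 2.94 CPM in the other 3, and Uty at 5.30 CPM in dKD replicate 1 and at 10.0 to 10.8 CPM in the others. Fanci was at 4.95 CPM in dKD replicate 4 and at 6.29 to 6.56 CPM in the others.

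The effect of Klf5 siRNA differed between embryos with and without Nr5a2 siRNA for 3 genes by DESeq2's interaction test over 12 libraries. The interaction on the log2 scale was 2.60 for CT030661.1 (adjusted p = 0.0135), 10.2 for Olfr832 (adjusted p = 0.0297) and 6.05 for Dusp6 (adjusted p = 0.0381). EdgeR's quasi-likelihood test gave adjusted p-values of 0.48, 0.498 and 0.48 for the same genes. Olfr832 had no counts in Nr5a2 KD and Dusp6 none in 2 of the 3 Klf5 KD libraries, so the sizes of these values depend on how the fit treats zeros.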

How the results depend on the processing

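EdgeR's counts of 0 lower and 0 higher genes in dKD against Nr5a2 KD stayed at 0 under most alternatives. There were 4 lower genes by DESeq2, 17 lower and 3 higher with no filter on low counts, 1 lower (Klf5) with a mitochondrial covariate, and 127 lower and 94 higher without adjustment. Leaving out each library gave 0 to 3 lower genes and 0 higher, the 3 being Mpc1, 4930506C21Rik and Rhox5 without dKD replicate 1. With the replicate block, edgeR called 0 genes in either direction (smallest adjusted p 0.0707, for Klf5, with a log2 fold change of -1.21), and 855 genes were at an unadjusted p under 0.05, where dKD replicate 4 has no partner. It changed no other call after adjustment in dKD against Nr5a2 KD. A block by consecutive library numbers in the file headers, chosen after seeing the data, gave 4 lower genes (Klf5, Mpc1, Apoa1 and 4930506C21Rik). Klf5 passed with -1.32 by DESeq2, -1.30 with no filter, -1.33 with the mitochondrial covariate, -1.31 unadjusted and -1.25 with the library-number block, and ranged from -1.55 to -1.18 with each library left out. Nr5a2 ranged from -0.25 to 0.063, its positive value being without Nr5a2 KD replicate 2.

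Differences of library measures (dKD minus Nr5a2 KD) with each library left out ranged from 0.599 to 5.02 CPM for H2B-EGFP, -0.0456 to 0.0372 percentage points for ERCC, -1.86 to 1.31 for the mitochondrial share, -57 to 131 genes detected and 21.4 to 35.4 CPM for Y-linked genes. They turned sign for the ERCC share without Nr5a2 KD replicate 2 (0.0372) and without dKD replicate 3 (0.00704) or 4 (0.015), for the mitochondrial share without Nr5a2 KD replicate 1 (0.226) or 2 (1.31) and without dKD replicate 3 (0.834) or 4 (1.03), and for genes detected without dKD replicate 4 (-57). In Klf5 KD against control, edgeR's 0 became 42 lower and 8 higher by DESeq2, 146 and 107 with the replicate block, which was added after seeing the data and leaves 1 residual degree of freedom for 5 libraries with 2 shared numbers, and 0 to 15 lower and 0 to 1 higher with each library left out, the 15 without Klf5 KD replicate 3. The interaction stayed at 0 lower, with 3 higher by DESeq2 and 0 to 0 with each library left out. The median in dKD against Nr5a2 KD of genes lower in Klf5 KD was -0.24 for 132 genes chosen at an unadjusted p under 0.01, -0.13 with the Y-linked covariate and -0.56 to -0.31 with each library left out. That of higher genes was 0.17, -0.46 and 0.086 to 0.54. Signs of single genes turned with the Y-linked covariate for Btg4 (0.50), Klf3 (0.13), Klf8 (0.038), Smad7 (0.28), Rad51c (0.11), Dusp6 (0.16), Xist (0.36), Prkcd (0.013) and Aunip (-0.39), and without a library for Rad51c (range -0.73 to 0.13), Dusp6 (range -0.61 to 0.014), Prkcd (range -0.29 to 0.14) and Aunip (range -0.17 to 0.36). Prkcd also turned with total counts (0.00078). Aunip also turned with ERCC scaling (-0.014), a mean of at least 50 counts (-0.0030), the mitochondrial covariate (-0.0035), the replicate block (-0.11), the library-number block (-0.11) and the libraries above 10% mitochondrial share (-0.049). Of 1126 values of the 52 genes under alternatives, 26 changed sign. The causes were not tested.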
